A study of Mus musculus with 13 samples.

Results

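The genes described here are 31 genes of the blood vessel wall, measured in the frontal cortex of wild-type and 5XFAD mice. They were taken by name, 31 of the 55536 gene identifiers counted, each with a summed expected count of at least 10 over the 13 libraries. Earlier results of these data were known when they were chosen. Of them, 22 mark endothelial cells, 6 mark pericytes or mural cells in general, and 3 mark contractile smooth muscle, which makes 9 mural genes. All 31 were also among the 17483 genes that passed the filter on low counts. The 4 groups were 3 libraries of 5XFAD mice at 11 months, 3 of B6SJLF1/J wild-type mice at 11 months, 3 of 5XFAD mice at 6 months and 4 of B6SJLF1/J wild-type mice at 6 months. 5XFAD mice carry transgenes driven by the Thy1 promoter, which is active in neurons, and they deposit amyloid in the cortex. The labels give no treatment, and nothing in them says that each library is a separate animal: the spread behind each p-value is that between libraries, and it may be technical.

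Brain endothelial cells form the blood-brain barrier: tight junctions seal the gaps between them, efflux pumps return foreign compounds to the blood, and dedicated carriers bring in glucose and other nutrients. Pericytes sit on capillaries inside the same basement membrane and help to maintain that barrier. Smooth muscle cells wrap arteries and arterioles and contract to set blood flow. In amyloid models and in Alzheimer's disease, amyloid can also be laid down in the walls of arteries.

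The promoters of 3 members are shown because they belong to the genes on which the 2 main comparisons turn: Flt1 and Tie1 stand for the endothelial genes that differed with age, and Acta2 for the smooth muscle genes, which had the lowest fold changes in 5XFAD mice at 11 months. Each is 300 bases on the minus strand, from 250 before to 50 after a start that RefSeq gives on GRCm38.p6, and for Acta2 and Tie1 that start differs from the gene start in GENCODE M21. RefSeq's table matched 20 of the 31 members, with 25 promoters, since some genes have several. In Flt1 (chr5:147725962-147726261) and Tie1 (chr4:118489800-118490099) the capitals mark AGGAAG or CGGAAG on either strand, letters that ETS factors such as the endothelial factor ERG can bind. In Acta2 (chr19:34255324-34255623) they mark CArG boxes, bound by serum response factor in smooth muscle, with a single C or G allowed in the A/T core.
Flt1: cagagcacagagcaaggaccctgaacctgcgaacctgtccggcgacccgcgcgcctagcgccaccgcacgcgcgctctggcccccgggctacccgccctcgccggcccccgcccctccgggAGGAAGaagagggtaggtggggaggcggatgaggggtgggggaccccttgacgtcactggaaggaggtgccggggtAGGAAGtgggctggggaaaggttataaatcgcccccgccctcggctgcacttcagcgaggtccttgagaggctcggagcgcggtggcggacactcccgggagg
Tie1: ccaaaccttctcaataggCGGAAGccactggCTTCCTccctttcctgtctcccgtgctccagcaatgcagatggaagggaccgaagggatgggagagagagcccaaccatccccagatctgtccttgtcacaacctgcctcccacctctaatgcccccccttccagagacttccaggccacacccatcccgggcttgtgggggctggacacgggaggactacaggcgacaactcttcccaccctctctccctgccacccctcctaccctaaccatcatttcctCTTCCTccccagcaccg
Acta2: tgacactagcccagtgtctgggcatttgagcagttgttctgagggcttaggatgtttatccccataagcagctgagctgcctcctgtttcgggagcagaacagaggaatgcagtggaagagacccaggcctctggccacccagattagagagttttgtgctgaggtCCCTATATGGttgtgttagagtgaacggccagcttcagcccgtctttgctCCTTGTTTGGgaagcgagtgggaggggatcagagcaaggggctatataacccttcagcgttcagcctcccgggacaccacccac
Flt1 held AGGAAG at 2 places, and Tie1 held AGGAAG at 2 and CGGAAG at 1. AGGAAG stood in 11 of the 25 member promoters and in 35.4% of all 32851 promoters of this length, and CGGAAG in 1 of the 25 and in 16.9% of all. The Acta2 promoter held 2 CArG boxes with such a substitution and 0 without one. These boxes, with or without the substitution, stood in 6 of the 25 member promoters and in 9.98% of all promoters, and those without it in 1.63% of all. Apart from Acta2, the member promoters with such a box were those of the endothelial genes Egfl7, Eng, Kdr, Slco1a4 and Tek. The smooth muscle genes Tagln and Myh11 had no promoter among the 25. Letters in a promoter are a description and say nothing on whether a factor was bound in these samples.

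Library totals ran from 23618289 to 26615772 counts, and no pair of libraries agreed within sampling noise. The summed level of 5 cortical neuron markers was between 4507 and 7268 CPM (counts scaled to each library's total and TMM factor) in every library of the labelled frontal cortex. Single markers of the 5 were less even. In wild type at 11 months, replicate 3 had 655 CPM of Slc17a7, against 1312 and 1373 CPM in replicates 1 and 2. Its Gad1 level was 473 CPM, against 261 and 195 CPM there. The library labelled wild type at 6 months, replicate 1, stood apart: all 7 tested markers of the choroid plexus, the tissue that makes cerebrospinal fluid, were at least 5 times the median of the other libraries there, with a summed level of 2977 CPM. Xist and Y-linked genes gave 2 females of 3 among 5XFAD mice at 11 months, 1 of 3 among wild-type mice at 11 months, 0 of 3 among 5XFAD mice at 6 months and 2 of 4 among wild-type mice at 6 months. The comparisons below ask how the vessel genes differ with age within each genotype, and with genotype at each age.

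Per length, the members covered a wide range. The mean level over all libraries was highest for Ly6c1, a surface protein of mouse endothelium, at 79.7 TPM (a share of transcripts, corrected for their length), followed by the pericyte product Vtn (vitronectin) at 69.5 TPM. Egfl7, a secreted endothelial protein, averaged 60.6 TPM, and Slc2a1, the glucose transporter of the barrier, 51.4 TPM. The tight junction gene Cldn5 followed at 27.8 TPM and the pericyte gene Rgs5 at 26.7 TPM. The lowest members were Kdr, the main VEGF receptor, at 1.30 TPM, and Myh11, smooth muscle myosin, at 0.806 TPM. The other smooth muscle genes were also low, with Tagln at 3.78 TPM and Acta2 at 3.35 TPM.

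The clearest difference was with age. Every one of the 31 members had a positive fold change at 11 against 6 months in both genotypes, with a median log2 fold change of 0.70 in 5XFAD mice and 0.75 in wild type, where the medians of all 17483 genes were -0.00054 and 0.015. In 5XFAD mice 15 of 31 members were higher at 11 months in edgeR's quasi-likelihood test (adjusted p under 0.05), against a background of 4.84% of all genes called higher. In wild-type mice 13 of 31 were higher, against a background of 2.42%. None was lower in either genotype. The 3 libraries at 11 months all lay above every library at 6 months for 25 members in 5XFAD mice (background 18.4%) and for 18 in wild type (background 9.11%). In bulk tissue more cells of a type and more RNA per cell cannot be told apart.

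**Figure D1:**
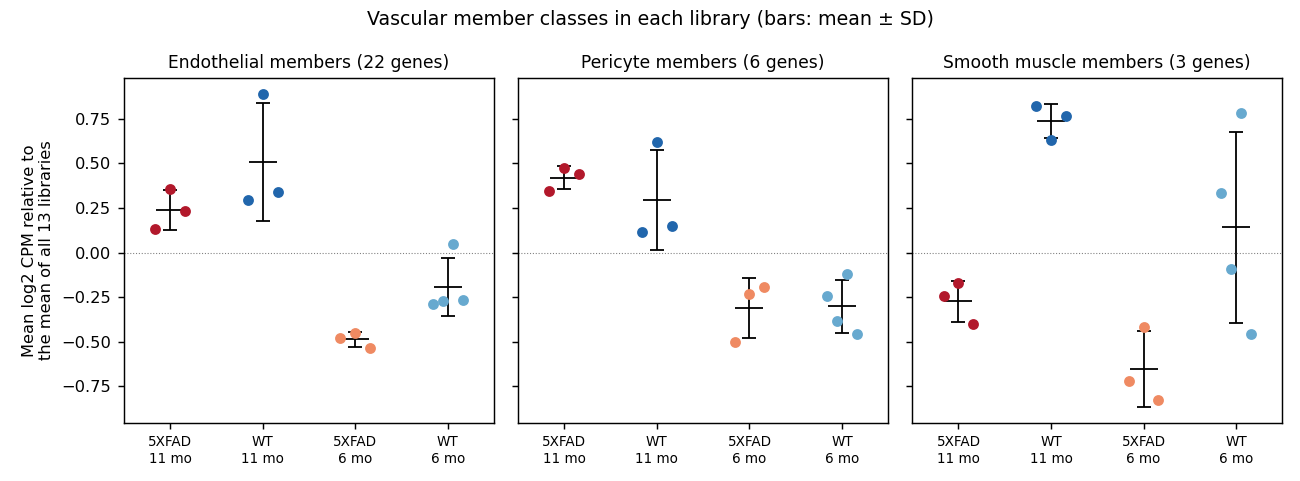
Mean log2 CPM of the endothelial, pericyte and smooth muscle members in each library, relative to the mean of all 13 libraries (dots; bars give mean ± SD of a group). Endothelial and pericyte genes separate by age, while the 3 smooth muscle genes stand lower in both 5XFAD groups than in wild type at 11 months.

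The calls within a genotype rested on few libraries. In wild type, 0 members passed without the 11-month replicate 2, which had the highest level of most endothelial members, and 0 without the 6-month replicate 4. Over all genes these fits called 2 and 0. Without the 6-month wild-type replicate 1 or 2 it was 1 member each, and 7 without the 6-month 5XFAD replicate 2. These fits called 133, 46 and 200 genes in all. With only wild-type libraries in the fit 0 members passed, where 1 gene passed in all. DESeq2 called 21 members, among 1843 genes in all, 1022 of them higher. In 5XFAD mice 1 member passed without the 11-month replicate 3, where 97 genes passed in all. It was 9 members without the 11-month replicate 1 (560 genes in all) and 7 without the 11-month replicate 2 (798 genes in all). It was 3 without the 6-month 5XFAD replicate 1, and 5 each without the 6-month replicate 2 or 3. These fits called 176, 308 and 518 genes in all. Averaging the age difference over both genotypes, a contrast added after the values were seen, placed 25 of 31 members past the threshold, against a background of 12.6% of genes called higher, with a median log2 fold change of 0.70. That count stayed within 1.5 times under all alternatives run, each left-out library included. Over all genes these fits called 1406 to 2613 higher, against 2202.

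Among the junction and adhesion genes, 3 of 4 were higher with age in each genotype. Cdh5 (chr8:104101625-104144511, GRCm38) encodes VE-cadherin, which holds endothelial cells to each other. It had 7.89, 10.7 and 8.95 CPM in 5XFAD libraries at 11 months, against 3.696, 4.36 and 2.95 CPM at 6 months, a log2 fold change of 1.33 ± 0.18 (standard error; edgeR adjusted p = 0.00340). An antisense gene, Gm29682, overlaps Cdh5. In wild type Cdh5 had 9.28, 13.3 and 10.49 CPM at 11 months, against 6.10, 5.57, 6.52 and 6.09 CPM at 6 months (0.86 ± 0.16, adjusted p = 0.0240). All 11-month libraries were above all 6-month libraries, in either genotype. Cldn5, the main claudin of barrier tight junctions, had 23.5, 30.8 and 31.1 CPM in 5XFAD mice at 11 months, against 17.1, 15.6 and 16.3 CPM at 6 months (0.80 ± 0.21). In wild type it had 33.9, 49.997 and 23.6 CPM at 11 months, against 19.9, 17.8, 19.8 and 19.4 CPM at 6 months (0.90 ± 0.19). Neither pair overlapped, and the wild-type 11-month libraries spread most, with replicate 2 highest. Pecam1, an adhesion molecule of endothelial borders, had 9.43, 13.5 and 12.9 CPM in 5XFAD mice at 11 months, against 6.32, 6.09 and 4.59 CPM at 6 months (1.08 ± 0.27). The wild-type libraries had 9.88, 20.6 and 13.5 CPM at 11 months, against 5.36, 7.60, 9.62 and 7.15 CPM at 6 months (0.98 ± 0.24). Esam, another adhesion molecule of endothelial junctions, did not pass, at 0.22 ± 0.14 in 5XFAD mice and 0.26 ± 0.13 in wild type.

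**Figure D2:**
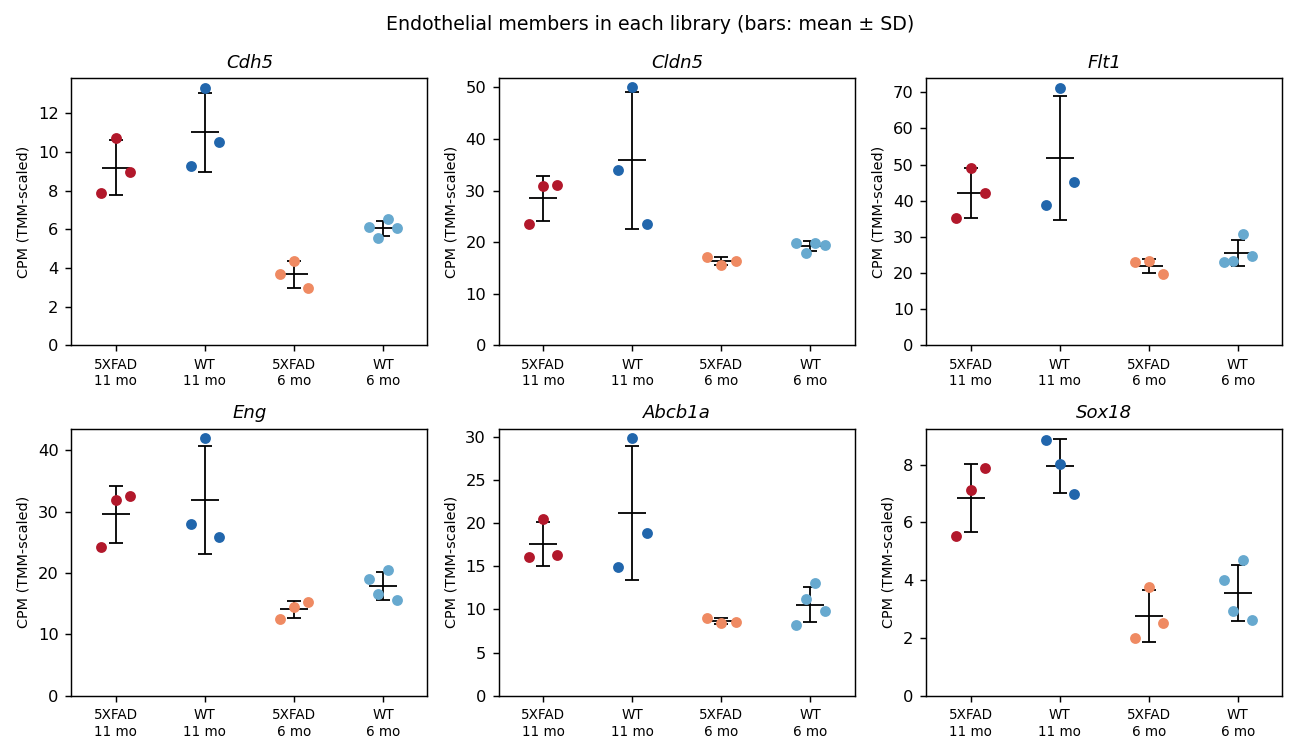
TMM-scaled CPM of 6 endothelial members in each of the 13 libraries (dots; bars give mean ± SD of a group of 3 or 4). The 11-month libraries lie above the 6-month libraries of the same genotype in every panel, and wild-type replicate 2 at 11 months is the highest dot for all but Sox18.

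All 6 receptor genes and receptor partners were higher with age in 5XFAD mice, and 4 of the 6 in wild type. Flt1, a VEGF receptor that also acts as a decoy, had 35.2, 49.0 and 42.1 CPM in 5XFAD mice at 11 months, against 23.1, 23.3 and 19.7 CPM at 6 months (0.93 ± 0.20). Its wild-type levels were 38.9, 71.2 and 45.1 CPM at 11 months, against 23.1, 23.3, 30.9 and 24.8 CPM at 6 months (1.02 ± 0.19). The ages did not overlap for Flt1. Eng, a co-receptor for TGF-beta family ligands, had 24.3, 32.0 and 32.6 CPM in 5XFAD mice at 11 months, against 12.4, 14.5 and 15.2 CPM at 6 months (1.07 ± 0.18, adjusted p = 0.00801). Wild-type mice had 28.0, 42.0 and 25.8 CPM at 11 months, against 19.0, 16.6, 20.5 and 15.6 CPM at 6 months (0.83 ± 0.17). Again no 6-month library reached an 11-month one of its genotype. Eng overlaps Fpgs on the opposite strand, and since the strand setting of the counting is not given, reads of the pair may be mixed.

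Tie1, an orphan receptor that modulates signalling by its relative Tek, had 7.24, 5.81 and 7.21 CPM in 5XFAD mice at 11 months, against 2.94, 3.51 and 4.197 CPM at 6 months (0.93 ± 0.23). In wild type it had 8.89, 14.1 and 8.29 CPM at 11 months, against 5.77, 4.47, 6.87 and 5.11 CPM at 6 months (0.91 ± 0.20). Both age differences passed and neither pair overlapped. Ptprb, the phosphatase that restrains Tek, had 15.2, 17.3 and 16.6 CPM in 5XFAD mice at 11 months, against 8.78, 11.97 and 8.51 CPM at 6 months (0.75 ± 0.21). The wild-type libraries had 17.8, 31.3 and 18.5 CPM at 11 months, against 12.3, 11.7, 15.4 and 11.6 CPM at 6 months (0.82 ± 0.19). The ages did not overlap for Ptprb in either genotype.

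Kdr and Tek passed in 5XFAD mice and not in wild type. Kdr had 5.58, 6.37 and 6.66 CPM in 5XFAD mice at 11 months, against 3.86, 3.98 and 3.34 CPM at 6 months (0.74 ± 0.19), and in wild type its fold change was 0.65 ± 0.18 (adjusted p = 0.0531), with 7.49, 9.37 and 5.95 CPM at 11 months, against 4.05, 6.01, 4.58 and 4.70 CPM at 6 months. Tek, the angiopoietin receptor, had 8.42, 6.90 and 9.49 CPM in 5XFAD mice at 11 months, against 4.41, 5.16 and 4.43 CPM at 6 months (0.83 ± 0.22). In wild type Tek had 9.76, 13.6 and 6.58 CPM at 11 months, against 6.02, 5.36, 6.71 and 5.72 CPM at 6 months (0.75 ± 0.20, adjusted p = 0.0541). For both genes 1 wild-type library at 11 months lay inside the 6-month range, and the genotypes' age differences were 0.08 ± 0.26 and 0.08 ± 0.30 apart, not past the threshold.

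Of the 4 barrier transporters, Abcb1a was higher with age in both genotypes. Abcb1a encodes the drug efflux pump P-glycoprotein. It had 16.02, 20.5 and 16.3 CPM in 5XFAD mice at 11 months, against 9.06, 8.42 and 8.55 CPM at 6 months (1.02 ± 0.23). Its wild-type levels were 14.9, 29.8 and 18.8 CPM at 11 months, against 8.23, 11.2, 13.03 and 9.80 CPM at 6 months (1.003 ± 0.21). The ages did not overlap in either genotype. Its close copy Abcb1b held 1468 counts over the 13 libraries, against 4588 for Abcb1a, so shared reads could be split between them.

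The carriers Slc2a1 and Mfsd2a passed in wild type alone. Mfsd2a, which carries lipid-bound docosahexaenoic acid into the brain and restrains transcytosis, had 13.8, 19.96 and 14.8 CPM in 5XFAD mice at 11 months, against 13.04, 12.6 and 16.6 CPM at 6 months (0.20 ± 0.17, adjusted p = 0.493). Wild-type mice had 19.7, 29.0 and 25.8 CPM at 11 months, against 13.6, 13.1, 13.3 and 12.05 CPM at 6 months (0.94 ± 0.15, adjusted p = 0.0172). The 5XFAD ages overlapped and the wild-type ages did not. The test of the difference between these age effects gave -0.74 ± 0.23 for Mfsd2a with an unadjusted p of 0.00593, the only 1 of the 31 members with an unadjusted p under 0.05 there, and it was not past the threshold after adjustment over all genes. Over all genes 1 of 17483 passed that test, a background of 0.00572%, and 0 members did, in edgeR as under the alternatives run. Slc2a1 had 82.9, 124 and 86.5 CPM in 5XFAD mice at 11 months, against 83.03, 72.6 and 81.2 CPM at 6 months (0.31 ± 0.16). In wild type it had 87.9, 129 and 116 CPM at 11 months, against 66.1, 68.6, 77.9 and 72.3 CPM at 6 months (0.64 ± 0.15). The ages overlapped for Slc2a1 in 5XFAD mice alone. Slco1a4, an organic anion transporter of the barrier, had 36.0, 32.3 and 31.6 CPM in 5XFAD mice at 11 months, against 23.1, 26.0 and 23.8 CPM at 6 months (0.45 ± 0.15). The wild-type libraries had 34.8, 49.7 and 36.0 CPM at 11 months, against 25.2, 27.4, 36.0 and 27.4 CPM at 6 months (0.47 ± 0.14). It passed in neither genotype, and did so in the age difference averaged over both (0.46 ± 0.10, adjusted p = 0.00651).

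Of the 3 endothelial transcription factors, Sox18 was higher with age in both genotypes and Sox17 in 5XFAD mice. Sox17 and Sox18 are related factors that specify and maintain endothelial, and for Sox17 arterial, identity. Sox18 had 5.54, 7.14 and 7.86 CPM in 5XFAD mice at 11 months, against 1.99, 3.76 and 2.53 CPM at 6 months (1.31 ± 0.26). Its wild-type levels were 8.85, 8.04 and 6.995 CPM at 11 months, against 4.01, 2.93, 4.69 and 2.61 CPM at 6 months (1.16 ± 0.24). This wild-type difference was the largest among the members, and all libraries separated by age. Sox17 had 4.69, 3.43 and 5.00 CPM in 5XFAD mice at 11 months, against 1.07, 2.24 and 1.87 CPM at 6 months (1.34 ± 0.32). Wild-type mice had 5.26, 7.11 and 5.04 CPM at 11 months, against 3.73, 2.03, 4.31 and 2.57 CPM at 6 months (0.88 ± 0.28, adjusted p = 0.0827). It passed in 5XFAD mice, and the wild-type ages did not overlap either. Erg, the endothelial ETS factor, had 3.32, 3.35 and 2.63 CPM in 5XFAD mice at 11 months, against 2.27, 1.23 and 1.63 CPM at 6 months (0.86 ± 0.34). In wild type it had 2.91, 5.69 and 3.25 CPM at 11 months, against 1.60, 2.93, 3.76 and 2.57 CPM at 6 months (0.54 ± 0.30). Erg did not pass in either genotype, on 924 counts over the 13 libraries.

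Of the 5 surface and secreted markers 1 passed within a genotype. Ly6c1 passed in wild type, with 38.4, 56.1 and 40.8 CPM at 11 months, against 22.3, 22.8, 31.5 and 26.7 CPM at 6 months (0.80 ± 0.16). In 5XFAD mice Ly6c1 had 31.2, 43.4 and 35.3 CPM at 11 months, against 31.04, 25.5 and 24.98 CPM at 6 months (0.43 ± 0.17, adjusted p = 0.148). The ages did not overlap in either genotype. Itm2a, a membrane protein of brain endothelium, had 19.6, 23.5 and 20.3 CPM in 5XFAD mice at 11 months, against 14.9, 18.1 and 15.3 CPM at 6 months (0.39 ± 0.17). The wild-type libraries had 17.3, 30.2 and 28.3 CPM at 11 months, against 18.6, 20.6, 20.3 and 20.1 CPM at 6 months (0.35 ± 0.15). The wild-type ages overlapped and neither difference passed. The fold changes in 5XFAD mice and in wild type were 0.29 ± 0.16 and 0.31 ± 0.15 for the sialomucin Emcn, and 0.09 ± 0.13 and 0.07 ± 0.12 for Egfl7, which did not pass either. Vwf, the clotting factor stored in endothelial cells, had 13.8, 25.6 and 9.69 CPM in 5XFAD mice at 11 months, against 17.3, 5.75 and 7.19 CPM at 6 months (0.70 ± 0.54). In wild type Vwf had 12.1, 28.9 and 16.4 CPM at 11 months, against 7.49, 8.45, 19.7 and 8.58 CPM at 6 months (0.79 ± 0.50). The ages overlapped widely, and these standard errors were the largest of the 31 members.

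Pericyte and general mural genes also had positive fold changes at 11 months, with medians of 0.62 in 5XFAD mice and 0.50 in wild type, which was 0.28 without the 11-month wild-type replicate 2. Notch3, a receptor of mural cells whose human form is mutated in an inherited small vessel disease, passed in both genotypes. It had 12.4, 10.7 and 11.7 CPM in 5XFAD mice at 11 months, against 3.299, 5.41 and 6.14 CPM at 6 months (1.23 ± 0.23, adjusted p = 0.0104). Its wild-type levels were 8.49, 12.2 and 8.87 CPM at 11 months, against 5.00, 5.08, 6.98 and 4.62 CPM at 6 months (0.86 ± 0.21). No library overlapped between the ages of a genotype, and an antisense gene, Gm17276, overlaps Notch3. Pdgfrb, the receptor through which endothelial PDGF-B recruits pericytes, had 24.0, 27.1 and 28.2 CPM in 5XFAD mice at 11 months, against 17.1, 15.7 and 19.1 CPM at 6 months (0.61 ± 0.16). Wild-type mice had 22.2, 33.5 and 20.5 CPM at 11 months, against 18.7, 18.4, 21.3 and 17.8 CPM at 6 months (0.41 ± 0.15, adjusted p = 0.113). The wild-type ages overlapped.

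Vtn had 72.0, 87.7 and 81.2 CPM in 5XFAD mice at 11 months, against 51.7, 52.6 and 52.0 CPM at 6 months (0.62 ± 0.14). In wild type it had 53.5, 87.2 and 67.1 CPM at 11 months, against 52.3, 45.9, 57.9 and 52.3 CPM at 6 months (0.41 ± 0.13, adjusted p = 0.0874). It passed in 5XFAD mice alone, and its genotype difference did not pass at either age. Rgs5, which dampens G protein signalling, had 81.6, 94.8 and 82.6 CPM in 5XFAD mice at 11 months, against 62.7, 70.2 and 66.0 CPM at 6 months (0.38 ± 0.14). The wild-type libraries had 77.9, 123 and 81.6 CPM at 11 months, against 62.7, 71.0, 69.3 and 61.4 CPM at 6 months (0.51 ± 0.13). The ages did not overlap, and the adjusted p was 0.121 in 5XFAD mice and 0.0505 in wild type. The peptidase Anpep (CD13) had 2.83, 3.06 and 3.06 CPM in 5XFAD mice at 11 months, against 1.15, 1.78 and 1.63 CPM at 6 months (0.97 ± 0.29). Its wild-type levels were 3.23, 3.03 and 2.46 CPM at 11 months, against 2.01, 1.14, 1.78 and 0.858 CPM at 6 months (1.01 ± 0.27). The small membrane protein Higd1b had 3.36, 3.87 and 3.60 CPM in 5XFAD mice at 11 months, against 2.15, 2.58 and 2.56 CPM at 6 months (0.57 ± 0.20). In wild type Higd1b had 2.47, 3.92 and 2.96 CPM at 11 months, against 2.25, 2.15, 2.13 and 2.37 CPM at 6 months (0.48 ± 0.18). None of Rgs5, Anpep and Higd1b passed within a genotype, and all 3 did when the age difference was averaged over both genotypes.

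**Figure D3:**
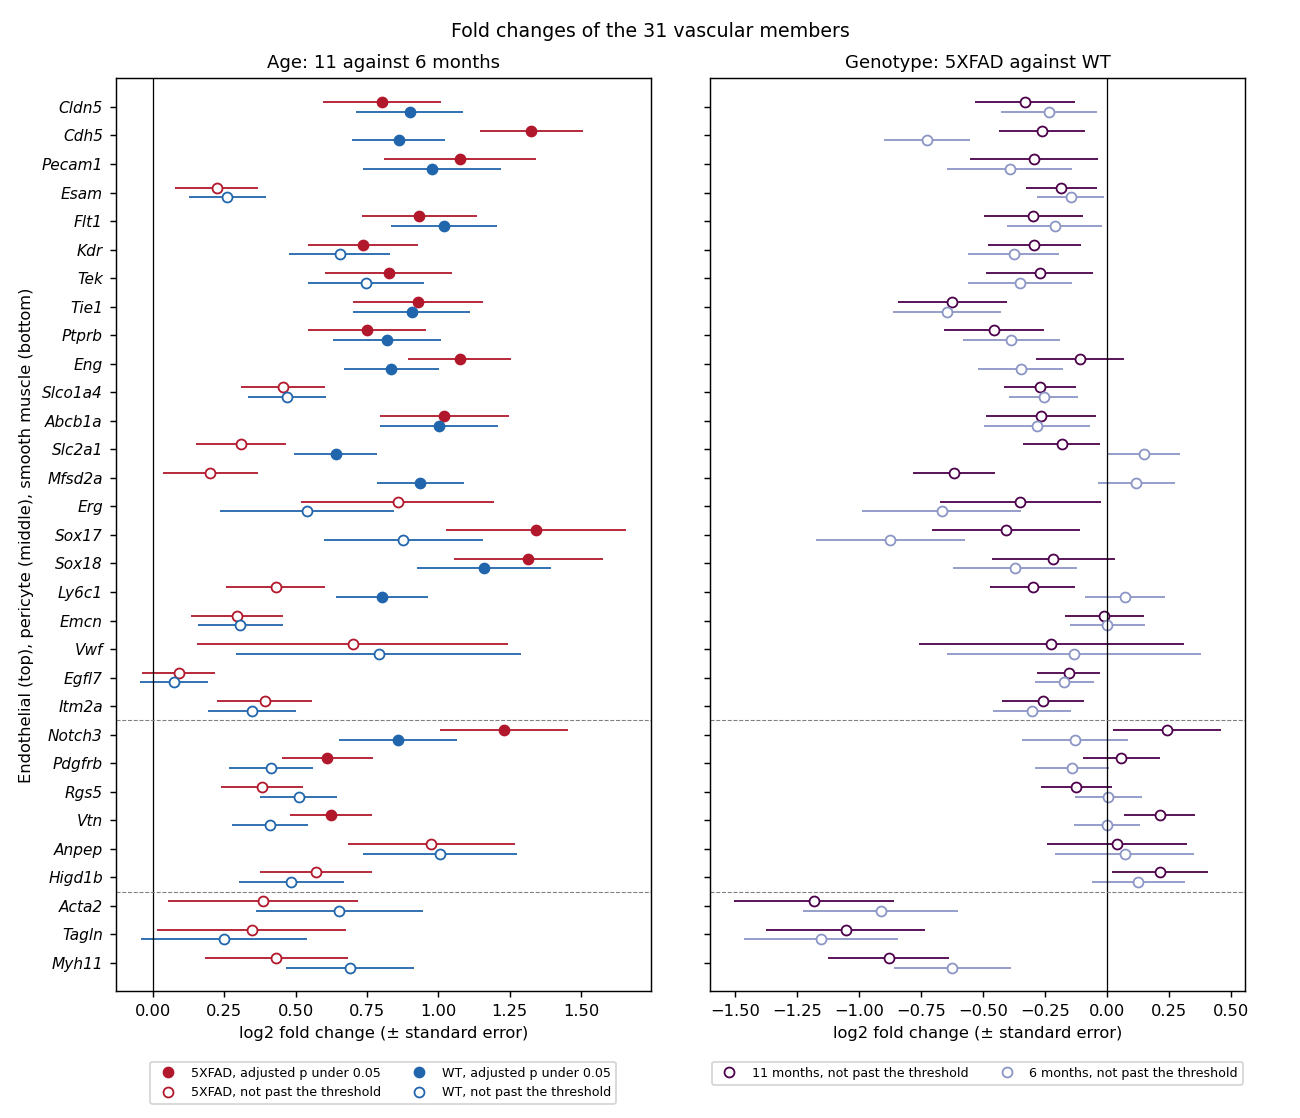
Log2 fold changes with standard errors for all 31 members, endothelial above, pericyte in the middle and smooth muscle below; filled points passed the adjusted p threshold. With age (left panel) every point lies right of 0, and with genotype (right panel) no point is filled and the 3 smooth muscle genes lie farthest left at 11 months.

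The 3 smooth muscle genes did not pass with age within either genotype, with medians of 0.39 in 5XFAD mice and 0.65 in wild type. Of the 31 members, 13 did not pass with age in either genotype: the 3 smooth muscle genes, Slco1a4, Esam, Emcn, Vwf, Egfl7, Itm2a, Erg, Rgs5, Anpep and Higd1b. Another 10 passed in both genotypes, which is 10 of the 15 in 5XFAD mice and 10 of the 13 in wild type. How many of all genes passed in both was not counted, so this overlap is a description only. Sex was unevenly spread over the ages, most of all in 5XFAD mice. With sex as a covariate 12 members passed in 5XFAD mice (881 genes in all) and 10 in wild type (345 genes in all). In that fit Kdr, Tek, Tie1, Cldn5 and Sox17 missed the threshold in 5XFAD mice (edgeR adjusted p = 0.0804, 0.0956, 0.0511, 0.0552 and 0.0550), while Ly6c1 and Slc2a1 passed it. Tie1, Ptprb and Notch3 missed it in wild type (0.0535, 0.0512 and 0.0595).

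The relation of expression to transcript length differed between ages. The slope of a library's expression on transcript length, in log2 units per doubling of length, was 0.00026 to 0.041 in 5XFAD mice at 11 months, against -0.076 to -0.045 at 6 months, and 0.013 to 0.12 in wild type at 11 months, against -0.041 to 0.013 at 6 months. With all genes split into 4 equal bins of transcript length, the median age difference in the bin of the longest was 0.098 in 5XFAD mice and 0.15 in wild type, and in the bin of the shortest -0.15 in both. The 10 members in the longest bin had medians of 0.79 and 0.78, and the 7 members in the shortest bin 0.57 and 0.48. With a length term in the fit the median age difference of the endothelial members was 0.76 in 5XFAD mice and 0.76 in wild type, and 11 and 3 members passed. Over all genes that fit called 658 higher in 5XFAD mice and 46 higher in wild type, against 847 and 423 without the term.

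**Figure D4:**
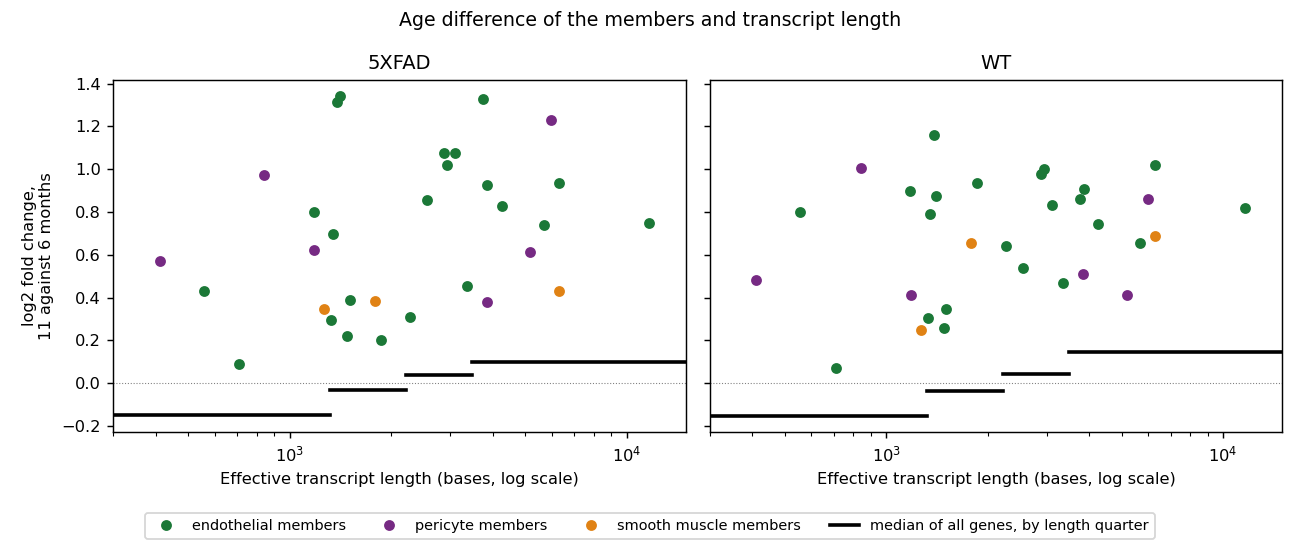
Age difference (log2 fold change, 11 against 6 months) of the 31 members against effective transcript length in bases on a log axis, in 5XFAD mice and wild type; black lines give the median of all genes in each of 4 bins of length. The members lie above the lines at every length, and the lines themselves climb with length from -0.15 to 0.098 in 5XFAD mice and 0.15 in wild type.

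Markers of blood, meninges, astrocytes, microglia and other cell types were set beside the age difference. The summed level of 5 red blood cell genes was 233 to 495 CPM in 5XFAD mice at 11 months, against 99.8 to 303 CPM at 6 months, and 283 to 482 CPM in wild type at 11 months, against 165 to 310 CPM at 6 months. None of those 5 passed within a genotype. Of 10 meninges and fibroblast markers, 4 were higher with age in 5XFAD mice and 0 in wild type. Their summed level was 36.1 to 57.2 CPM in 5XFAD mice at 11 months, against 19.3 to 31.4 CPM at 6 months, and 44.0 to 67.04 CPM in wild type at 11 months, against 27.8 to 79.1 CPM at 6 months, where the highest value is that of the library with choroid plexus markers. Of 6 astrocyte markers 3 were higher in 5XFAD mice and 2 in wild type, with a summed level of 2682 to 3313 CPM in 5XFAD mice at 11 months, against 2057 to 2169 CPM at 6 months, and 2163 to 3585 CPM in wild type at 11 months, against 1838 to 1996 CPM at 6 months. Of 6 microglia markers 4 were higher with age in 5XFAD mice and 0 in wild type, with a summed level of 811 to 1096 CPM in 5XFAD mice at 11 months, against 458 to 503 CPM at 6 months, and 235 to 412 CPM in wild type at 11 months, against 227 to 242 CPM at 6 months. Median log2 fold changes with age were -0.31 in 5XFAD mice and -0.16 in wild type for 5 cortical neuron markers. They were -0.36 and -0.12 for 4 oligodendrocyte markers, -0.69 and -0.55 for 4 ependyma markers, and 0.016 and -2.33 for 7 choroid plexus markers. None of these markers passed within a genotype. The part of meninges, blood, length or any of these cell types in the members' age difference was not tested beyond the fit with a length term.

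With genotype, 0 of 31 members passed at 6 months (background 1.32% of genes called) and 0 at 11 months (background 4.31%) in edgeR's quasi-likelihood test. An unadjusted p under 0.05 was found for 6 members at each age. Over all 17483 genes it was found for 1589 at 6 months and 2757 at 11 months. DESeq2 called 2 members lower at 6 months, Cdh5 and Tagln, and 4 at 11 months, Acta2, Tagln, Myh11 and Mfsd2a. Over all genes DESeq2 called 384 at 6 months, 39 of them lower, and 1128 at 11 months, 220 of them lower. With 1 library left out, 1 member passed at 6 months without the 11-month wild-type replicate 2, where 258 genes passed in all. At 11 months 3 passed without the 6-month wild-type replicate 3, 2 without the 11-month wild-type replicate 1, and 1 each without the 6-month wild-type replicate 2 or 4, the 6-month 5XFAD replicate 3 or the 11-month 5XFAD replicate 2. Over all genes these 11-month comparisons called 775, 688, 717, 697, 686 and 756, in that order. Fold changes were mostly negative: 25 of 31 at 6 months and 26 of 31 at 11 months, with medians of -0.26 and -0.27, against -0.0074 and -0.027 over all genes. The 5XFAD libraries all lay below the wild-type ones for 8 members at 6 months (background 5.07%) and for 6 at 11 months (background 8.76%).

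The 3 smooth muscle genes had the lowest fold changes at 11 months. In the GENCODE M21 annotation of GRCm38 Acta2 lies at chr19:34241090-34255590, Tagln at chr9:45929619-45936058 and Myh11 at chr16:14194535-14291372. Acta2, smooth muscle actin, had 3.32, 3.43 and 2.91 CPM in 5XFAD mice at 11 months, against 8.21, 6.26 and 7.41 CPM in wild type at that age (-1.18 ± 0.32, adjusted p = 0.0591). At 6 months it had 2.15, 2.88 and 2.37 CPM in 5XFAD mice, against 5.98, 3.05, 7.06 and 2.45 CPM in wild type (-0.91 ± 0.31, adjusted p = 0.308). At 11 months the genotypes were fully apart, and at 6 months they overlapped, with the wild-type libraries over a wide range. The related actin gene Acta1 held 2988 counts over all libraries, against 1427 for Acta2, so shared reads could be split between them. Tagln, the actin-binding protein transgelin, had 2.87, 2.38 and 2.09 CPM in 5XFAD mice at 11 months, against 6.26, 4.04 and 4.96 CPM in wild type (-1.06 ± 0.32, adjusted p = 0.0929). At 6 months it had 2.15, 2.16 and 1.48 CPM in 5XFAD mice, against 3.48, 4.14, 6.94 and 2.53 CPM in wild type (-1.15 ± 0.31, adjusted p = 0.120). Tagln did not overlap at either age, and it shares its locus with Pcsk7 on the other strand. Myh11 had 2.75, 3.75 and 3.10 CPM in 5XFAD mice at 11 months, against 4.90, 6.70 and 6.08 CPM in wild type (-0.88 ± 0.24, adjusted p = 0.0620). At 6 months it had 2.07, 2.92 and 2.14 CPM in 5XFAD mice, against 4.30, 2.88, 4.73 and 2.696 CPM in wild type (-0.62 ± 0.24, adjusted p = 0.407). The 11-month genotypes were again fully apart.

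**Figure D5:**
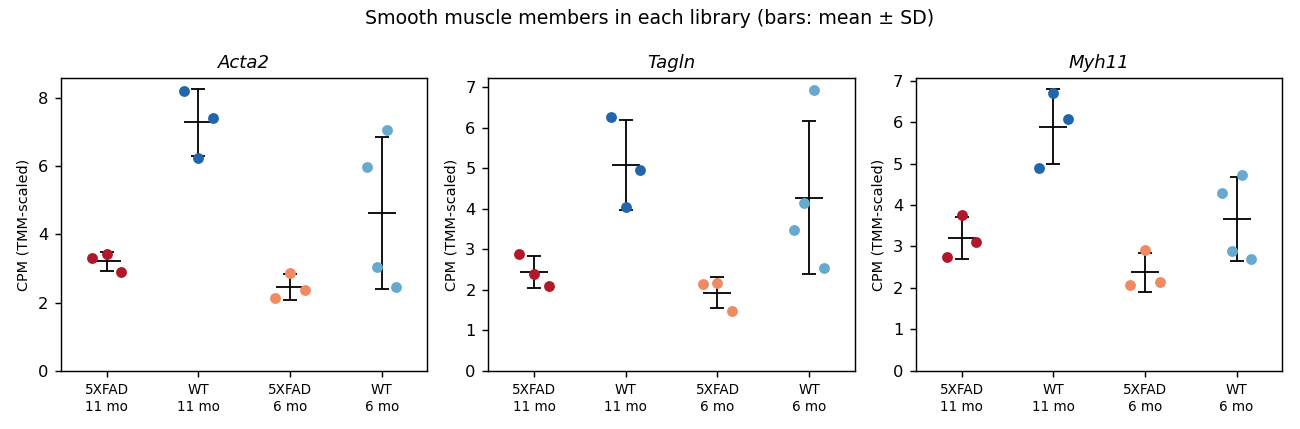
TMM-scaled CPM of Acta2, Tagln and Myh11 in each library (dots; bars give mean ± SD of a group of 3 or 4). At 11 months all 3 5XFAD libraries lie below all 3 wild-type libraries for each gene, and at 6 months the wild-type libraries spread from 2.45 to 7.06 CPM for Acta2.

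Averaged over both ages, a contrast added after the values were seen, 5 members were lower in 5XFAD mice, against a background of 1.46% of genes called lower. They were Tagln (-1.10 ± 0.22, adjusted p = 0.00719), Acta2 (-1.05 ± 0.23, 0.0112), Myh11 (-0.75 ± 0.17, 0.0154), Tie1 (-0.64 ± 0.15, 0.0239) and Cdh5 (-0.50 ± 0.12, 0.0261) in edgeR's test. This count was 2 without the 6-month 5XFAD replicate 1 and 3 without the 11-month 5XFAD replicate 3, where 80 and 89 genes in all were lower. Of 12 other smooth muscle genes tested, 0 passed at either age or in the average; 11 had a negative fold change at 6 months and 9 at 11 months, with medians of -0.16 and -0.26. Meninges carry arteries on the brain surface, and at 11 months their 10 markers had a median of -0.15 between genotypes with summed levels of 36.1 to 57.2 CPM in 5XFAD mice, against 44.0 to 67.04 CPM in wild type. At 6 months all 10 had a negative fold change, with a median of -0.74. The part of meninges in the smooth muscle difference was not tested.

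Endothelial fold changes were nearer to 0. Their median was -0.29 at 6 months, with 19 of 22 negative, and -0.27 at 11 months, with 22 of 22 negative. The second median was -0.075 without the 11-month wild-type replicate 2. Cdh5 had the smallest p at 6 months (-0.73 ± 0.17, adjusted p = 0.0597): its 5XFAD libraries, at 3.696, 4.36 and 2.95 CPM, all lay below the wild-type ones, at 6.10, 5.57, 6.52 and 6.09 CPM. At 11 months the Cdh5 fold change was -0.26 ± 0.17 and the genotypes overlapped. With sex as a covariate Cdh5 passed at 6 months (adjusted p = 0.0293); all 5XFAD libraries of that age were male. Mfsd2a had the smallest p at 11 months (-0.62 ± 0.16, adjusted p = 0.0505), and its libraries overlapped slightly, with 13.8, 19.96 and 14.8 CPM in 5XFAD mice, against 19.7, 29.0 and 25.8 CPM in wild type. Tie1 stood at -0.65 ± 0.22 at 6 months and -0.62 ± 0.22 at 11 months, with no overlap at either age. The transcription factor Sox17 stood at -0.87 ± 0.30 and -0.41 ± 0.30.

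Pericyte fold changes between genotypes lay around 0. Their median was 0.0019 at 6 months and 0.13 at 11 months, with 3 and 5 of 6 positive, and the second was 0.36 without the 11-month wild-type replicate 2. Notch3 stood at -0.13 ± 0.21 at 6 months and 0.24 ± 0.22 at 11 months, and Pdgfrb at -0.14 ± 0.15 and 0.06 ± 0.16. None of these passed, and a p that misses the threshold does not show equal levels.

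Other genes of the vessel pathways were taken from 10 further lists, of which 120 genes were tested. With genotype, 7 of them (5.83%) passed at 11 months, against 4.31% of all genes, and 2 (1.67%) at 6 months, against 1.32%, shares near the background. Vegfa, the main growth factor for Flt1 and Kdr, was the single gene of the 7 that was lower, 1 of 15 tested genes of its list. Vegfa had 34.8, 39.7 and 35.6 CPM in 5XFAD mice at 11 months, against 68.2, 74.7 and 64.2 CPM in wild type (-0.91 ± 0.10, edgeR adjusted p = 8.37e-05). At 6 months it had 35.7, 32.5 and 38.2 CPM in 5XFAD mice, against 41.7, 41.3, 48.8 and 37.9 CPM in wild type (-0.26 ± 0.10, adjusted p = 0.401). The 11-month 5XFAD libraries were near the level of 6 months, and the 11-month wild-type libraries stood above all others. With age Vegfa was higher in wild type (0.70 ± 0.10) and stood at 0.05 ± 0.10 in 5XFAD mice, and the difference between these was -0.65 ± 0.14 (adjusted p = 0.465).

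The genes that were higher in 5XFAD mice were Tgfbr2, F11r, Icam1, Tnfrsf1a, Tgfb1 and Slco2b1. Tgfbr2, a TGF-beta receptor, had 49.0, 49.7 and 65.0 CPM in 5XFAD mice at 11 months, against 11.6, 16.3 and 15.2 CPM in wild type (1.92 ± 0.14), and it also passed at 6 months (0.99 ± 0.13). F11r, the junction protein JAM-A, stood at 0.83 ± 0.17 at 6 months and 1.12 ± 0.18 at 11 months and passed at both. At 11 months the adhesion molecule Icam1 stood at 1.47 ± 0.22, the TNF receptor Tnfrsf1a at 1.24 ± 0.20, the ligand Tgfb1 at 1.31 ± 0.22 and the transporter Slco2b1 at 1.07 ± 0.19. Microglia, the macrophages of the brain, express several of these 6 genes too. Of 6 microglia markers 4 were higher in 5XFAD mice at 6 months and 5 at 11 months, with a summed level of 811 to 1096 CPM in 5XFAD mice at 11 months, against 235 to 412 CPM in wild type. The part of microglia in these 6 genes was not tested. Averaged over both ages, the contrast added after the values were seen, the same 6 genes passed as higher. Slc7a1 (-0.31 ± 0.08), Axin2 (-0.38 ± 0.10), Nos3 (-0.45 ± 0.10) and Heyl (-0.53 ± 0.15) passed as lower beside Vegfa (-0.58 ± 0.07). Of the 120 genes, 5% were thus higher and 4.17% lower. Over all 17483 genes 853 were higher and 256 (1.46%) lower, so the share called higher was near the background. Slc7a1 carries cationic amino acids, Axin2 is a target of Wnt signalling, and Heyl is a target of Notch signalling in mural cells.

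With age, 25 of the 120 genes (20.8%) were higher in 5XFAD mice, against 4.84% of all genes, and 17 (14.2%) in wild type, against 2.42%. The lists were chosen with earlier results of these data known, so these shares are a description only. Of 10 basement membrane genes, 5 were higher in 5XFAD mice and 2 in wild type, among them the laminin gene Lamb2 (0.74 ± 0.17 and 0.66 ± 0.16) in both, and the collagen IV genes Col4a1 (0.89 ± 0.21) and Col4a2 (0.95 ± 0.25) in 5XFAD mice. Of 12 endothelial activation genes tested, 5 were higher in 5XFAD mice and 2 in wild type; Thbd, the anticoagulant receptor thrombomodulin, stood at 1.08 ± 0.25 and 0.88 ± 0.23, and Nos3, endothelial nitric oxide synthase, at 0.77 ± 0.15 and 0.69 ± 0.14. Of 11 other barrier junction genes 3 were higher in each genotype, with Tjp1 (ZO-1) at 0.48 ± 0.08 and 0.53 ± 0.08 and Jam2 at 0.48 ± 0.12 and 0.57 ± 0.11. Of 11 other transporters 3 were higher in 5XFAD mice and 2 in wild type, with the organic anion transporter Slc22a8 (0.78 ± 0.18 and 0.65 ± 0.17) in both. Of 10 genes of caveolae and transcytosis 3 and 2 were higher, with the caveolar genes Cav1 (0.61 ± 0.13 and 0.59 ± 0.12) and Cavin1 in both.

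Of 14 genes of PDGF, TGF-beta and Notch signalling 4 were higher with age in 5XFAD mice and 2 in wild type, with Notch4, an endothelial receptor, at 0.69 ± 0.19 and 0.74 ± 0.17. Of 14 genes of the Wnt programme that maintains the barrier, 1 was higher in each genotype: the Wnt effector Lef1 in 5XFAD mice (1.17 ± 0.23) and the mural factor Foxf2 in wild type (1.09 ± 0.21). Of 15 genes of VEGF, angiopoietin and sprouting 0 and 2 were higher, Vegfa and Flt4 in wild type. Of 11 other pericyte genes 1 was higher in each, Cspg4 (NG2; 0.67 ± 0.15 and 0.63 ± 0.14), and of 12 other smooth muscle genes 0 were. No gene of these 10 lists was lower with age within a genotype. Of the genes in these lists, 6 held too few counts to be tested, with 16 to 52 counts over all libraries: Aplnr, Esm1, Sele, Selp, Actg2 and Myocd.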

How the data were processed

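Messenger RNA was sequenced from 13 frontal cortex libraries (total RNA, RNeasy). The authors deposited, per library, expected counts, TPM and effective lengths for 55536 gene identifiers, which their processing notes tie to STAR 2.7.1, RSEM and GRCm38. Neither the annotation nor the strand setting is named in the labels or headers. Symbols came from GENCODE M21.

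The deposited expected counts, 7.24% to 7.71% of them not whole, were rounded and tested in R 4.3.3 with edgeR 4.0.16: genes kept by filterByExpr (minimum count 10, minimum total 15), TMM scaling, 4 group means over 13 libraries and robust quasi-likelihood tests. P-values were adjusted over 17483 genes by Benjamini-Hochberg, with 0.05 as the threshold. Errors beside log2 fold changes are standard errors. CPM is TMM-scaled. TPM values deposited by the authors served for levels across genes. Library totals of 23618289 to 26615772 left the members 697 to 28523 counts each. Values per library are given for members called in any comparison, and of the other lists the genes called between genotypes are named; further genes called with age were named after their values were seen.

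Alternatives were RLE scaling, DESeq2 1.42.0, no filter, limma 3.58.1 on log2(TPM + 1), only the groups compared, sex (read from Xist and Y-linked genes) as a covariate, a length offset and each library left out. The main edgeR fit, the length offset, limma (on CPM in place of TPM) and DESeq2 were also run on simulated counts. The other alternatives were not. The members and lists were chosen with earlier results of these data known. Replicates were numbered in deposit order, so equal numbers pair nothing.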

Additional observations from a re-analysis of the deposited data

Results flagged for a closer look

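Among the 4 wild-type libraries at 6 months, 38 values were screened for a library far from the other 3 (Dixon's criterion), which chance meets in about 1 of 20 groups, and 5 met it. Vwf stood at 19.7 CPM in replicate 3, against 7.49 to 8.58 CPM in the others. The endothelial mean of the same library was 0.0495 on the log2 scale relative to all libraries, against -0.290 to -0.265 in the others. Replicate 3 also had 10449 CPM of oligodendrocyte markers, against 4763 to 5057 CPM in the others, a sum that is not among the 5. In replicate 1 the summed choroid plexus markers reached 2977 CPM, against 15.6 to 38.1 CPM in the others. The same library had 79.1 CPM of meninges and fibroblast markers, against 27.8 to 34.6 CPM in the others, and 310.2 CPM of red blood cell genes, against 165 to 170.3 CPM in the others.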

How the results depend on the processing

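No called fold change changed sign under the alternatives run, while counts of called members moved. The pericyte median between genotypes at 6 months was 0.0019, and -0.0029 with the length offset. For genotype at 6 months, DESeq2 called 2 members and the fit with sex 1, against 0, and leaving out 1 library gave 0 to 1. Over all genes DESeq2 called 384 and the fit with sex 174, against 231. For genotype at 11 months, DESeq2 called 4, the fit with no filter 2, limma on TPM 3 and the fit of only the groups compared 1, against 0, and leaving out 1 library gave 0 to 3. In all, DESeq2 called 1128 genes, no filter 771, limma on TPM 856 and only the groups compared 443, against 753. For age in 5XFAD mice leaving out 1 library gave 1 to 17 members, against 15. The fits with 1 and 17 members called 97 and 1801 genes in all, against 1264. For age in wild type, DESeq2 called 21 members and the fit of only the groups compared 0, against 13. The length offset gave 3 and the fit without the choroid plexus library 1. Leaving out 1 library gave 0 to 17, and the fits with 17 called 1921 and 900 genes in all. In all, DESeq2 called 1843 genes, only the groups compared 1, the length offset 58 and the fit without the choroid plexus library 133, against 649. For genotype averaged over ages, limma on TPM called 12, against 5, and leaving out 1 library gave 2 to 7. Over all genes limma on TPM called 1581 lower, and the fits with 2 and 7 members 80 and 413 lower, against 256. For age averaged over genotypes leaving out 1 library gave 22 to 27, against 25. Over all genes those fits called 1406 to 2431 higher, against 2202. No cause of these changes was tested, except that fits of fewer libraries have fewer degrees of freedom by construction. Among single genes, 499 values kept their side of the threshold, 202 lost it and 13 gained it. On the TPM scale the median of all genes between genotypes was -0.11 at 6 months and -0.12 at 11 months, against -0.0074 and -0.027 on counts.

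No paired analysis was possible because replicate numbers follow the order of deposit and the labels tie no library of one group to one of another. Anpep, Higd1b and Erg held under 1000 counts over all libraries, while the largest standard errors with age were those of Vwf, which held 4502 counts.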

Other observations

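Aqp4, the water channel of the astrocyte endfeet that surround brain vessels, was higher in 5XFAD mice than in wild type at 11 months (0.98 ± 0.18, edgeR adjusted p = 0.00458). It was also higher at 11 than at 6 months in 5XFAD mice (0.87 ± 0.18, adjusted p = 0.0150). Of the 6 astrocyte markers it was the only one called between genotypes at 11 months. Among border macrophage markers, Mrc1 was higher with age in 5XFAD mice (1.93 ± 0.49) and Cbr2 in wild type (2.61 ± 0.63), 1 of 4 tested in each. Both stood at low levels. Mrc1 had 0.769, 0.726 and 1.59 CPM in 5XFAD mice at 11 months, against 0.199, 0.423 and 0.194 CPM at 6 months. Cbr2 had 0.598, 0.888 and 0.541 CPM in wild type at 11 months, against 0.205, 0.0813, 0.0388 and 0.123 CPM at 6 months. Of the 4 markers, 3 had a positive fold change in 5XFAD mice and 4 in wild type.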
